A study of Saccharomyces cerevisiae and Saccharomyces mikatae and Saccharomyces paradoxus with 13 samples.

Results

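The PRM genes of budding yeast encode pheromone-regulated membrane proteins. The group described here holds 8 of the 6132 ORFs on the array, chosen by their ORF identifiers: PRM2 (YIL037C), PRM4 (YPL156C), PRM5 (YIL117C), PRM6 (YML047C), PRM7 (YDL039C), PRM8 (YGL053W), PRM9 (YAR031W) and PRM10 (YJL108C). The series set the mating response of Saccharomyces mikatae, S. paradoxus and S. cerevisiae side by side on 13 S. cerevisiae cDNA arrays with 2 colours. The alpha factor groups were 4 arrays of S. mikatae (an a haploid made from IFO 1815), 3 of S. paradoxus (an a haploid made from CBS432) and 3 of S. cerevisiae (BY4741, haploid a cells). In each of them, log-phase cells in YPD at 30 °C were sampled 60 min after 6 µM alpha factor and set against untreated cells of the same species. A further 3 arrays, called mating arrays here, held an S. cerevisiae mixture of BY4741 (a) and BY4742 (alpha) cells kept on a 0.22 µm filter on YPD agar at 30 °C for 90 min. Their reference was the same cells kept apart and mixed only before RNA extraction. Each species was represented by 1 strain background, all strains are named as wild type in the labels, and the probes are those of S. cerevisiae for all 3 species.

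Alpha factor is the peptide that alpha cells release and a cells detect. It acts through a receptor, a G protein and a MAP kinase cascade on the transcription factor Ste12, which switches on genes for arrest, adhesion, polarised growth and fusion of the mating partners. The PRM genes were named in S. cerevisiae as predicted membrane proteins among such targets. They are not 1 family: Prm2 acts in nuclear fusion, Prm6 (also called Kch2) in potassium transport, and Prm8 and Prm9 belong to the DUP240 family of small membrane proteins, while Prm7 has no settled role.

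All values are taken as log2 ratios of treated or mated over reference cells, read as channel 1 over channel 2. The log base is not given in the sources used here, so fold changes rest on this reading. For the alpha factor arrays the dye named for treated cells is Cy5 in the channel label and Cy3 in the labelling text, which makes the direction likely and not certain. If it is the other way round, rises and falls on the alpha factor arrays change places. The labels of the mating arrays hold no such conflict. All pairs of arrays correlated positively, at 0.369 to 0.899 over all genes. FIG1 and FUS1, mating genes used to check the direction, rose in every group, FIG1 by 4.62 to 5.02 and FUS1 by 1.499 to 2.07 as group means. All 7 markers of a cells rose on the S. cerevisiae and S. paradoxus alpha factor arrays, as did the 4 tested in S. mikatae and the 6 tested in mating. Of the 4 markers of alpha cells, 1 of 3 tested rose in S. mikatae, 1 of 3 in S. paradoxus, 3 of 4 in mating and 2 of 3 in S. cerevisiae alpha factor arrays. Over all genes tested, 23.3%, 23.9%, 19.4% and 16.3% rose in that order. Ratios of markers show change and not level, and in cell populations fewer cells of a type cannot be told apart from less RNA per cell. No value on any array of the group was given for 26.6% of ORFs in S. mikatae, 20.8% in S. paradoxus, 37.2% in mating and 2.15% in S. cerevisiae alpha factor arrays. Precision is limited by the small number of arrays, and spot intensities were not part of the data used.

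A PRM gene had values on all arrays of a group or on none. All 8 were measured in the S. cerevisiae alpha factor response, 6 in S. paradoxus, 3 in S. mikatae and 4 in mating, and PRM7 alone on all 13 arrays. A gene without a value is not described as unchanged. Genes were called at a limma Benjamini-Hochberg adjusted p under 0.05, taken over all genes tested in that comparison. In S. mikatae 2 of the 3 tested PRM genes rose and 1 fell, where 48.0% of all 4367 genes were called (23.3% higher, 24.7% lower). In S. paradoxus 5 of 6 rose and 1 fell, against 48.5% of 4748 genes called (23.9% higher, 24.6% lower). In mating 3 of 4 rose and none fell, against 39.6% of 3712 genes called (19.4% higher, 20.2% lower). In the S. cerevisiae alpha factor response 7 of 8 rose and 1 fell, against 33.6% of 5789 genes called (16.3% higher, 17.3% lower). The median over the PRM genes tested was 0.54 in S. mikatae, 1.72 in S. paradoxus, 1.99 in mating and 1.96 in S. cerevisiae alpha factor arrays, while the median of all genes was at most 0.0042 from 0 in each group. The genes without a value differ between groups, so these medians rest on different genes.

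**Figure D1:**
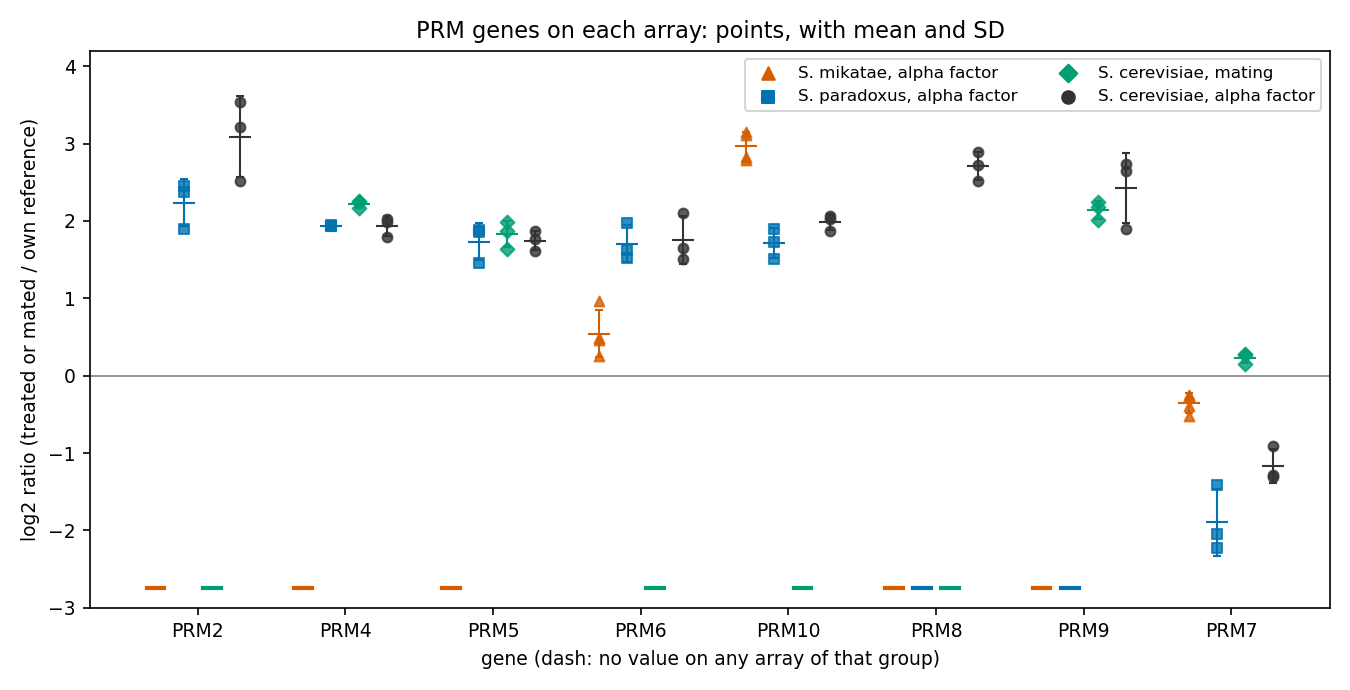
Log2 ratio (vertical axis) of the 8 PRM genes on each array, with the group mean and SD as bars. From left to right within a gene the groups are S. mikatae, S. paradoxus, mating and S. cerevisiae alpha factor, and a dash marks a group without a value. PRM7 lies below 0 on every alpha factor array and above 0 on the 3 mating arrays, while every other value is above 0.

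PRM2, which acts in the fusion of the nuclei after the cells have joined, had the highest mean of the 8 PRM genes in the S. cerevisiae alpha factor arrays. Its log2 ratios were 2.45, 2.37 and 1.89 on the S. paradoxus arrays, against 3.54, 2.51 and 3.22 on the S. cerevisiae alpha factor arrays. All 3 S. paradoxus values lay below the lowest S. cerevisiae value, though the gap between 2.45 and 2.51 was narrow. PRM2 rose by 2.24 ± 0.302 in S. paradoxus (SD, n = 3; 4.72-fold; adjusted p = 1.93e-05) and by 3.09 ± 0.525 in S. cerevisiae (SD, n = 3; 8.51-fold; adjusted p = 5.37e-06). In S. cerevisiae it was the 11th highest of 5789 genes, and its SD was larger than that of 97.9% of genes. The difference, S. paradoxus minus S. cerevisiae, was −0.85 (95% interval −1.44 to −0.26) and did not pass the threshold (adjusted p = 0.0561). It passed with arrays scaled to a common spread (−1.52, adjusted p = 0.00657), after quantile normalization (−1.15, adjusted p = 0.0361), with array weights (−0.83, adjusted p = 0.0225) and without S. cerevisiae array 2 (−1.14, adjusted p = 0.00905).

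PRM4, a predicted membrane protein and Ste12 target, varied least between arrays of all PRM genes measured in S. paradoxus and in mating. It had log2 ratios of 1.94, 1.95 and 1.93 in S. paradoxus, 2.26, 2.25 and 2.16 in mating, and 2.02, 1.99 and 1.79 in the S. cerevisiae alpha factor arrays. The S. paradoxus values lay within the range of the S. cerevisiae alpha factor values, and the 3 mating values lay above both. PRM4 rose by 1.94 ± 0.00927 in S. paradoxus, by 2.22 ± 0.0537 in mating and by 1.94 ± 0.124 in S. cerevisiae alpha factor arrays (SD, n = 3 each), with adjusted p of 8.45e-09, 3.43e-09 and 1.06e-08. S. paradoxus differed from S. cerevisiae by 0.0023, with a 95% interval of −0.21 to 0.22 and an adjusted p of 0.99. With arrays scaled to a common spread that difference was −0.48 (adjusted p = 0.0177), and after quantile normalization it was −0.23 (adjusted p = 0.201). Mating minus alpha factor was 0.29 (0.07 to 0.50), not called (adjusted p = 0.0676) except with array weights (0.34, adjusted p = 0.0235).

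PRM5 is known in S. cerevisiae as a target of both the pheromone pathway and the cell wall integrity factor Rlm1. The PRM5 ratios were 1.45, 1.86 and 1.88 in S. paradoxus, 1.87, 1.98 and 1.64 in mating, and 1.76, 1.62 and 1.86 in S. cerevisiae alpha factor arrays. The 3 groups overlapped. The rises were 1.73 ± 0.239, 1.83 ± 0.172 and 1.75 ± 0.125 in the same order (SD, n = 3 each), with adjusted p between 3.35e-07 and 5.59e-07. The difference was −0.02 (−0.33 to 0.30; adjusted p = 0.946) for S. paradoxus minus S. cerevisiae. It was 0.08 (−0.23 to 0.40; adjusted p = 0.734) for mating minus alpha factor. The sign of the first changed when single arrays were left out. That of the second changed with arrays scaled to a common spread and with array weights. Both intervals allow a difference either way.

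YNL058C, the paralog of PRM5, did not keep to the values of PRM5 across groups. It had log2 ratios of −0.72, −0.76 and −0.34 in mating, against 0.73, 0.84 and 0.83 in the S. cerevisiae alpha factor arrays, with no overlap. It fell by 0.61 ± 0.23 in mating (SD, n = 3; adjusted p = 0.000262) and rose by 0.80 ± 0.062 with alpha factor (SD, n = 3; adjusted p = 5.17e-05). Mating minus alpha factor was −1.41 for YNL058C (adjusted p = 4.84e-05) and 0.08 for PRM5. In S. paradoxus YNL058C was at 0.24 ± 0.147, and S. paradoxus minus S. cerevisiae was −0.57 (adjusted p = 0.0103).

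The cell wall integrity list holds the kinase gene SLT2, RLM1 and known targets, 16 genes in all. In S. mikatae 4 of 9 tested rose and none fell, in S. paradoxus 3 of 12 rose and 4 fell, in mating none of 7 rose and 3 fell, and in S. cerevisiae alpha factor arrays 4 of 15 rose and 2 fell. The shares of all genes called in these groups were 48.0%, 48.5%, 39.6% and 33.6%. Its medians were 0.11, 0.0021, −0.02 and 0.17 in that order, against medians of all genes at most 0.0042 from 0. GFA1, an enzyme on the path to chitin, rose by 1.37 ± 0.155 in S. cerevisiae alpha factor arrays, and SLT2 by 0.61 ± 0.104 (SD, n = 3 each). FKS1, a subunit of glucan synthase, fell by 1.24 ± 0.0154 there. Among those calls, the rise of KDX1 was lost without any 1 of the 3 arrays and the fall of CHS3 without array 2 or array 3. In S. paradoxus, KDX1 was lost without any 1 array, CRH1 without array 2 or array 3 and CWP1 without array 2, and in S. mikatae BGL2 was lost without array 2 or array 4. The cell wall gene PIR1 fell by 1.83 ± 0.263 in mating (SD, n = 3; adjusted p = 3.35e-07), where PRM5 rose by 1.83.

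PRM6, known as Kch2, takes part in potassium uptake during the pheromone response. Of the 3 PRM genes with values in S. mikatae, it alone had lower values there than in both other species. Values on the log2 scale were 0.97, 0.49, 0.25 and 0.46 on the S. mikatae arrays, 1.52, 1.97 and 1.63 on the S. paradoxus arrays, and 2.11, 1.65 and 1.51 on the S. cerevisiae alpha factor arrays. All 4 S. mikatae values lay below all others, and S. paradoxus and S. cerevisiae overlapped. PRM6 rose by 0.54 ± 0.303 in S. mikatae (SD, n = 4; 1.46-fold; adjusted p = 0.00327), by 1.71 ± 0.238 in S. paradoxus (SD, n = 3; 3.26-fold; adjusted p = 2.79e-06) and by 1.75 ± 0.314 in S. cerevisiae (SD, n = 3; 3.37-fold; adjusted p = 4.25e-06). In S. mikatae it was the 270th highest of 4367 genes.

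PRM10, a predicted membrane protein with several spans and no settled role, went the other way in S. mikatae. Its log2 ratios were 3.14, 2.78, 3.11 and 2.83 in S. mikatae, 1.51, 1.73 and 1.90 in S. paradoxus, and 2.03, 1.88 and 2.06 in S. cerevisiae alpha factor arrays. All 4 S. mikatae values lay above all others. PRM10 rose by 2.97 ± 0.189 in S. mikatae (SD, n = 4; 7.82-fold; adjusted p = 2.38e-10), by 1.71 ± 0.194 in S. paradoxus (SD, n = 3; adjusted p = 9.13e-08) and by 1.99 ± 0.0999 in S. cerevisiae (SD, n = 3; adjusted p = 4.80e-08). It was the 8th highest of 4367 genes in S. mikatae and the 25th highest of 5789 in S. cerevisiae.

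The differences themselves were tested for the 3 PRM genes with values in S. mikatae, and all 3 were called against either species. Of all genes, 11.9% were called in S. mikatae minus S. cerevisiae (6.38% higher, 5.49% lower) and 13.7% in S. mikatae minus S. paradoxus (6.04% higher, 7.68% lower). PRM6 differed by −1.21 from S. cerevisiae (95% interval −1.62 to −0.80; adjusted p = 0.00153), the 15th lowest of 4357 genes. Against S. paradoxus it differed by −1.16 (−1.57 to −0.75; adjusted p = 0.00211), the 11th lowest of 4090. PRM10 differed by 0.98 from S. cerevisiae (0.70 to 1.25; adjusted p = 0.000509) and by 1.25 from S. paradoxus (0.98 to 1.53; adjusted p = 7.06e-05). The PRM10 difference from S. cerevisiae was not called with arrays scaled to a common spread (0.73, adjusted p = 0.166). These comparisons share the S. mikatae arrays, and those against S. cerevisiae share its arrays with the comparisons of S. paradoxus and of mating.

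PRM6 and PRM10 differed in opposite directions in S. mikatae, so they were also set against each other within each array, a pair chosen for those values and given with no test. PRM10 minus PRM6 was 2.18, 2.29, 2.86 and 2.36 on the S. mikatae arrays, −0.01, −0.25 and 0.27 on the S. paradoxus arrays, and −0.08, 0.23 and 0.55 on the S. cerevisiae alpha factor arrays. The means were 2.42 ± 0.304 (SD, n = 4), 0.0058 ± 0.262 and 0.24 ± 0.316 (SD, n = 3 each) in that order. The lowest S. mikatae array was above the highest array of either other species. Mismatch between S. cerevisiae probes and S. mikatae RNA was not measured, and its part in the PRM6 and PRM10 values was not tested.

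KCH1, the potassium transport paralog of PRM6, had no such low value in S. mikatae. The KCH1 ratios were 0.65, 0.60, 0.70 and 0.72 in S. mikatae, 0.64, 0.83 and 0.73 in S. paradoxus, 0.40, 0.38 and 0.18 in mating, and 0.52, 0.40 and 0.66 in S. cerevisiae alpha factor arrays. It rose in all 4 groups, by 0.67 ± 0.0531, 0.73 ± 0.0924, 0.32 ± 0.122 and 0.53 ± 0.127 in that order (SD, n = 4 for S. mikatae and 3 for the others). S. mikatae minus S. cerevisiae was 0.14 for KCH1 (adjusted p = 0.365) and −1.21 for PRM6. Apart from KCH1, the list of potassium and calcium transport genes held TRK1, TRK2, TOK1, CCH1, MID1 and ECM7. With KCH1 counted, 3 of 6 tested rose and 1 fell in S. mikatae, 1 of 7 rose and 1 fell in S. paradoxus, 1 of 5 rose and 2 fell in mating, and 1 of 7 rose and 1 fell in S. cerevisiae alpha factor arrays, where 48.0%, 48.5%, 39.6% and 33.6% of all genes were called. The fall in the last was MID1, a calcium channel subunit, at −0.25 ± 0.0501 (SD, n = 3; adjusted p = 0.0166), which was not called when any 1 of its arrays was left out (adjusted p = 0.0586 to 0.085). Other calls lost with 1 array left out were TRK1 (array 1 or 3) and ECM7 (array 2) in S. mikatae, TOK1 (array 1 or 3) in S. paradoxus and ECM7 (array 3) in mating.

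**Figure D2:**
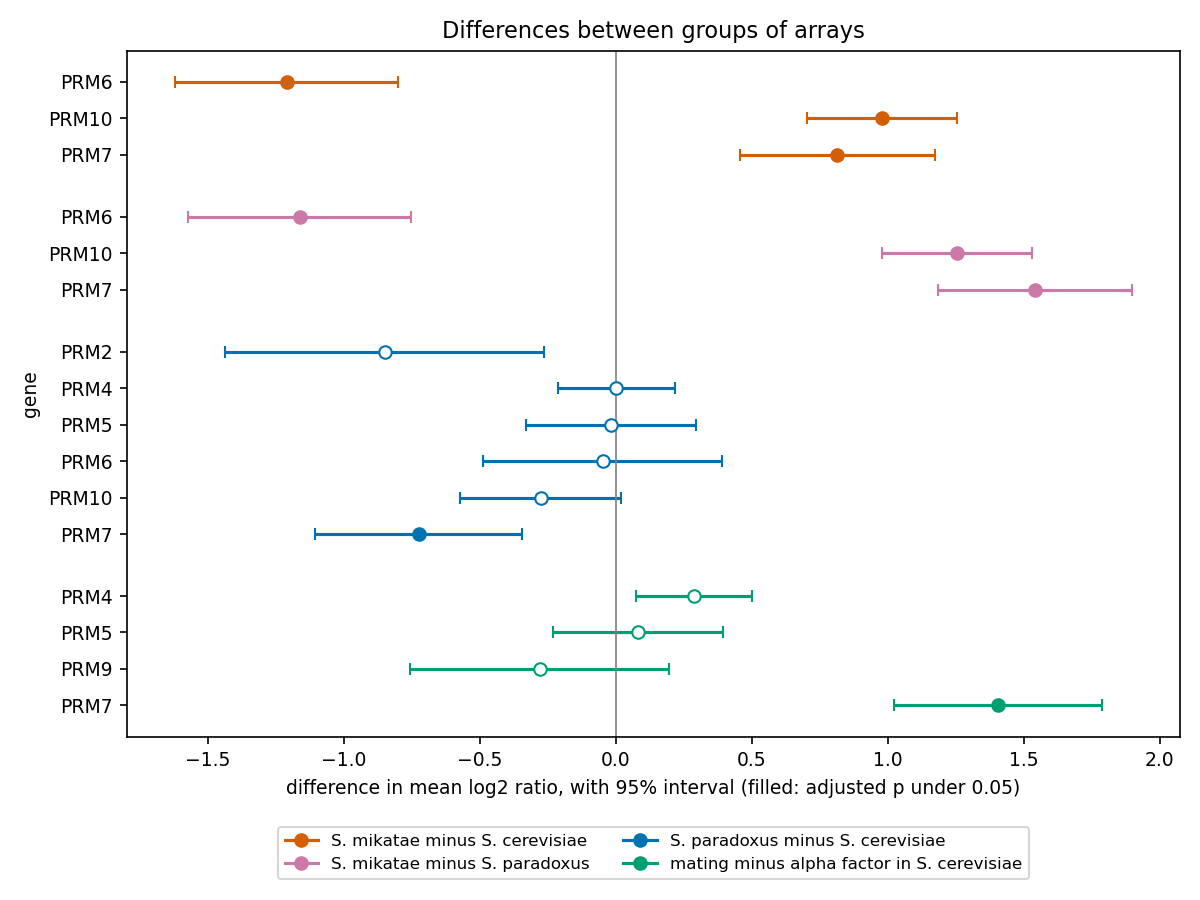
Difference in mean log2 ratio (horizontal axis, with its 95% interval) for each PRM gene and comparison, filled where the adjusted p was under 0.05. PRM6 lies left of 0 and PRM10 and PRM7 right of 0 in both comparisons of S. mikatae, and PRM7 has the largest value of mating minus alpha factor, 1.40.

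PRM8 and PRM9 belong to the DUP240 family, membrane proteins that occur as tandem copies and act in part in the trafficking of vesicles. PRM8 had log2 ratios of 2.89, 2.72 and 2.52 on the S. cerevisiae alpha factor arrays and no value elsewhere. It rose by 2.71 ± 0.184 (SD, n = 3; 6.55-fold; adjusted p = 3.82e-06), the 15th highest of 5789 genes. PRM9 had log2 ratios of 2.02, 2.24 and 2.18 in mating, against 1.90, 2.74 and 2.64 in the S. cerevisiae alpha factor arrays, and the groups overlapped. It rose by 2.15 ± 0.115 in mating (SD, n = 3; adjusted p = 1.09e-05) and by 2.43 ± 0.459 with alpha factor (SD, n = 3; adjusted p = 6.94e-06). Mating minus alpha factor was −0.28 (−0.76 to 0.20; adjusted p = 0.399) and, without S. cerevisiae alpha factor array 1, −0.54 (adjusted p = 0.0325).

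The 8 other DUP240 genes had no value in S. mikatae that could be tested. In S. paradoxus 1 of 3 rose, in mating 4 of 5 rose, and in S. cerevisiae alpha factor arrays 6 of 8 rose, with none falling in any of the 3 groups. Among all genes, 23.9%, 19.4% and 16.3% were called higher in that order. Of the mating calls, that of DFP4 was lost without mating array 1 (0.27, adjusted p = 0.0567). The S. cerevisiae alpha factor median of these genes was 0.78, against 2.71 for PRM8 and 2.43 for PRM9. MST28, a vesicle protein gene next to PRM9, had 1.88, 1.62 and 1.04, a rise of 1.52 ± 0.43 (SD, n = 3; adjusted p = 0.000697). MST27, its partner next to PRM8, had 0.999, 1.46 and 0.40, a rise of 0.95 ± 0.531 (SD, n = 3; adjusted p = 0.00943). The change was larger for PRM8 than for MST27 and for PRM9 than for MST28 on each of the 3 arrays. UIP3 rose by 1.09 ± 0.155 and KTD1, a killer toxin defence factor, by 1.05 ± 0.217, while DFP2 rose by 0.61 ± 0.394 and DFP1 by 0.41 ± 0.0991 (SD, n = 3 each). DFP3 and DFP4 were at 0.07 and 0.12 and were not called. Family members have similar sequences, so a probe may bind RNA of several of them, which was not tested.

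Of the 3 DUP240 genes tested between S. paradoxus and S. cerevisiae, DFP3 was higher and DFP1 lower in S. paradoxus. The DFP3 ratios were 1.29, 1.23 and 1.35 in S. paradoxus, against 0.29, −0.12 and 0.04 in S. cerevisiae alpha factor arrays, with no overlap. The difference was 1.22 (adjusted p = 0.000551). For DFP1 the same difference was −0.45 (adjusted p = 0.0109), from means of −0.04 ± 0.0738 in S. paradoxus and 0.41 ± 0.0991 in S. cerevisiae (SD, n = 3 each).

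**Figure D3:**
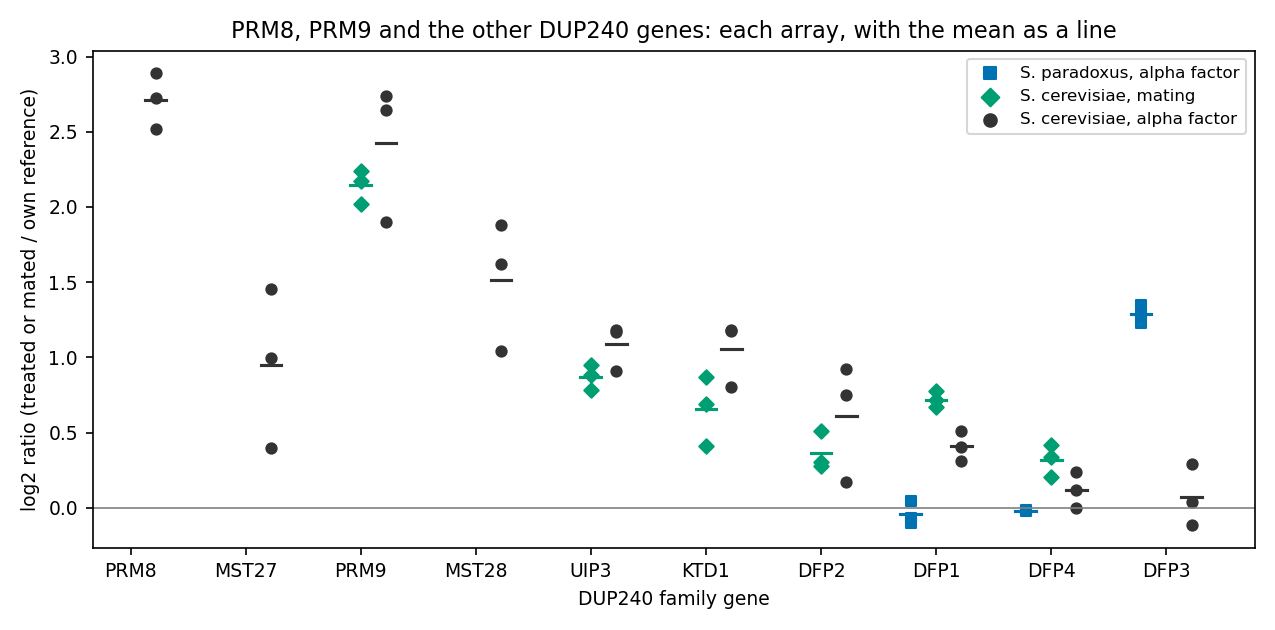
Log2 ratio (vertical axis) of PRM8, PRM9 and the 8 other DUP240 genes, a point for each array and a line for the mean of S. paradoxus, mating and S. cerevisiae alpha factor arrays. PRM8 and PRM9 lie above the other family members, and DFP3 is high on the S. paradoxus arrays at 1.23 to 1.35.

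PRM7, whose role is not settled, was the 1 PRM gene that fell with alpha factor, and its mean was above 0 on the mating arrays. Its log2 ratios were −0.39, −0.25, −0.26 and −0.52 in S. mikatae, −2.05, −2.23 and −1.41 in S. paradoxus, 0.28, 0.15 and 0.27 in mating, and −1.28, −1.31 and −0.91 in S. cerevisiae alpha factor arrays. The 4 groups did not overlap, with S. paradoxus lowest, then S. cerevisiae alpha factor, S. mikatae and mating, and the step between S. mikatae and mating was not tested. PRM7 fell by 0.36 ± 0.128 in S. mikatae (SD, n = 4; adjusted p = 0.0155), by 1.90 ± 0.431 in S. paradoxus (SD, n = 3; 3.72-fold lower; adjusted p = 8.77e-08) and by 1.17 ± 0.222 in S. cerevisiae (SD, n = 3; 2.25-fold lower; adjusted p = 1.68e-05). In mating it was at 0.23 ± 0.0694 (SD, n = 3), which did not pass the threshold (adjusted p = 0.155). It was the 5th lowest of 4748 genes in S. paradoxus and the 36th lowest of 5789 in S. cerevisiae. The S. mikatae call was lost without S. mikatae array 4 (−0.30, adjusted p = 0.0768) and after quantile normalization (adjusted p = 0.0833), and the mating value was called when only the mating arrays were fitted (adjusted p = 0.0342).

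Mating minus alpha factor in S. cerevisiae was 1.40 for PRM7 (95% interval 1.02 to 1.79; adjusted p = 0.000233), the 7th highest of 3648 genes. It was the 1 call among the 4 PRM genes tested there, where 16.0% of all genes were called (8.63% higher, 7.37% lower). The value stayed between 1.33 and 1.53 with any 1 array left out. S. mikatae minus S. paradoxus was 1.54 (1.18 to 1.90; adjusted p = 5.25e-05), the 14th highest of 4090 genes, and S. mikatae minus S. cerevisiae was 0.82 (0.46 to 1.17; adjusted p = 0.00591).

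S. paradoxus minus S. cerevisiae was −0.73 for PRM7 (−1.11 to −0.34; adjusted p = 0.0144). This was the 1 call among the 6 PRM genes tested in that comparison, where 16.3% of all genes were called (9.07% higher, 7.25% lower). It was not called without S. paradoxus array 1 (−0.65, adjusted p = 0.0589), S. paradoxus array 2 (−0.56, adjusted p = 0.0606) or S. cerevisiae array 3 (−0.60, adjusted p = 0.0659), nor with only the arrays compared (adjusted p = 0.0661). Scaling the arrays to a common spread gave −0.33 (adjusted p = 0.156) and quantile normalization −0.80 (adjusted p = 0.0539). PRM6 differed by −0.05 (−0.49 to 0.39; adjusted p = 0.894) and PRM10 by −0.28 (−0.57 to 0.02; adjusted p = 0.186), neither of them called. The PRM10 difference was called with quantile normalization (−0.51, adjusted p = 0.0458) and with array weights (−0.38, adjusted p = 0.0346).

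The array carries another ORF that the current gene table joins to PRM7. YDL038C, listed there as a synonym of PRM7, had log2 ratios of −0.11, 0.09 and 0.35 in mating, against 0.04, −0.00013 and 0.08 in S. cerevisiae alpha factor arrays. Its means were 0.11 ± 0.231 and 0.04 ± 0.0386 (SD, n = 3 each), neither of them called, and their difference was 0.07 (adjusted p = 0.755). The YDL038C and PRM7 rows disagree, and which part of the joined frame each probe covers is not given in the sources used here. BSC1, the next gene upstream on the same strand, had 0.11, 0.09 and −0.24 in mating, against −1.19, −0.76 and −0.79 with alpha factor, with no overlap. BSC1 was at −0.01 ± 0.193 in mating and fell by 0.91 ± 0.241 with alpha factor (SD, n = 3 each; adjusted p = 0.000416 for the fall). Mating minus alpha factor was 0.90 for BSC1 (adjusted p = 0.00639). In some S. cerevisiae strains these frames are known to be joined into 1 gene.

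By likeness over the 13 arrays, PRM7 was closest to LRP1, TMA16 and NOC2 among 2193 other genes measured on all of them. The root mean square difference in log2 ratio was 0.49 for LRP1, 0.499 for TMA16 and 0.51 for NOC2, against a median of 1.14 for all genes. LRP1 and NOC2 act in the processing of ribosomal RNA and the making of ribosomes. NOC2 was at −0.76 in S. mikatae, −1.25 in S. paradoxus, −0.15 in mating and −0.67 in S. cerevisiae alpha factor arrays. This is a description with no test.

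**Figure D4:**
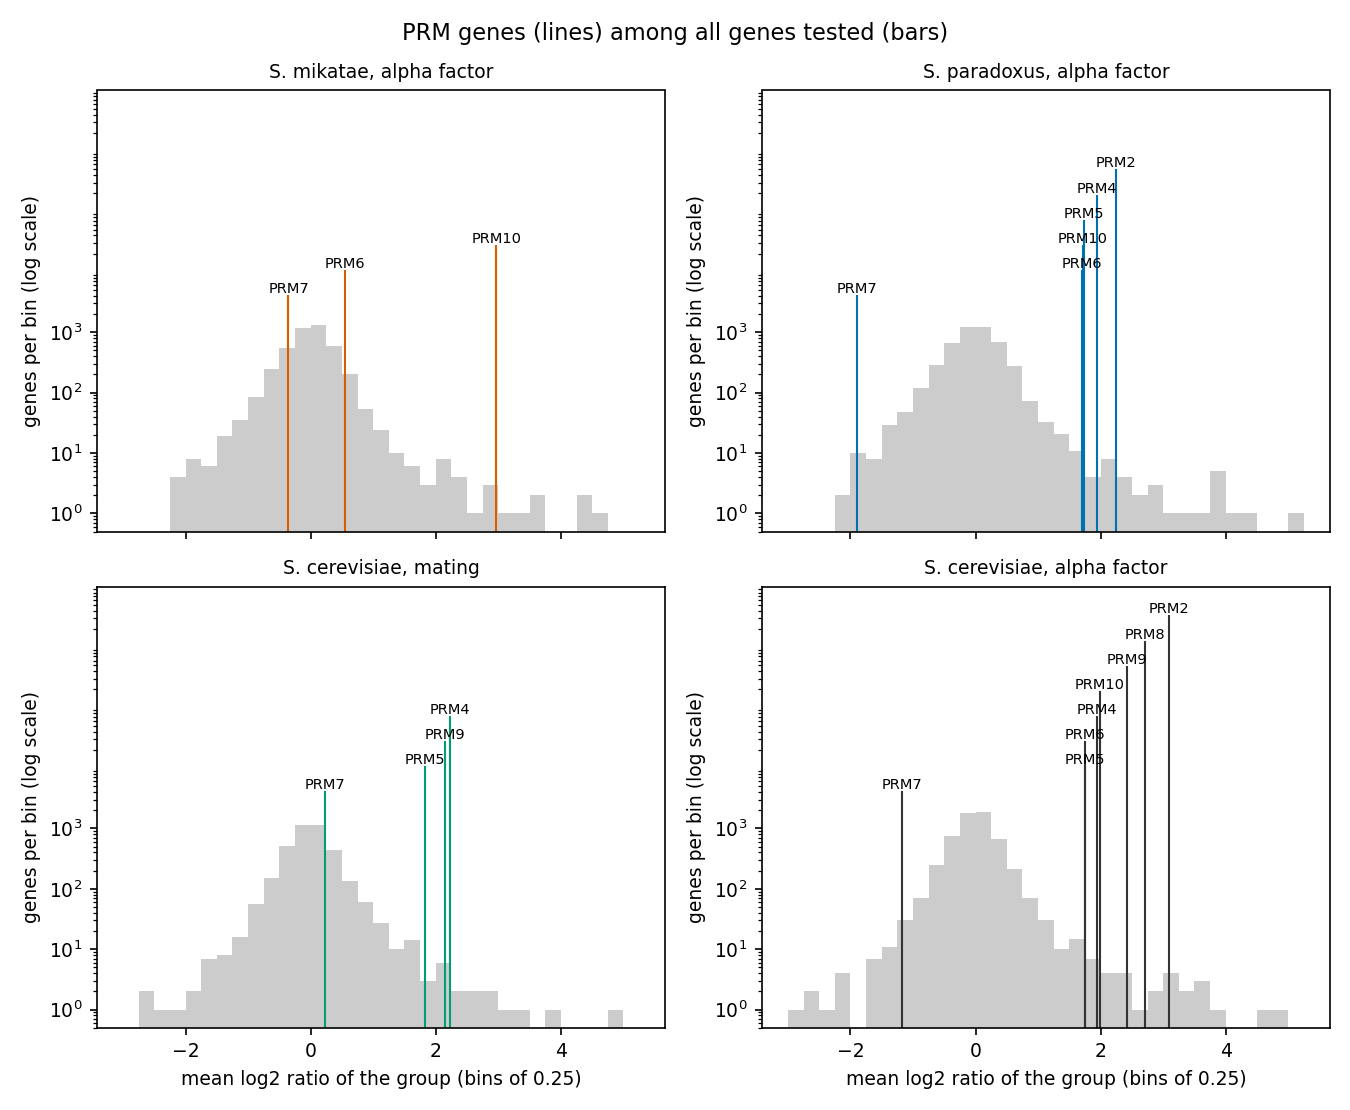
Genes per bin of mean log2 ratio (bins of 0.25, logarithmic vertical axis) in each of the 4 groups, with a line for each PRM gene measured in that group. PRM7 lies in the lower tail in S. paradoxus at −1.90 and near the centre in S. mikatae and mating, while PRM10 lies in the upper tail in S. mikatae at 2.97.

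The other genes of the pathway rose in part. A list of 14 other pheromone-induced surface, adhesion and fusion genes, which includes PRM1 and PRM3, had 8 rises of 9 tested in S. mikatae, 13 of 14 in S. paradoxus, 10 of 10 in mating and 13 of 14 in S. cerevisiae alpha factor arrays, with no fall. The shares of all genes called higher in these groups were 23.3%, 23.9%, 19.4% and 16.3%. The S. mikatae rise of ECM18, 0.28 ± 0.158 (SD, n = 4; adjusted p = 0.0319), was lost without array 1, array 2 or array 4. The list's medians were 3.13, 2.68, 2.58 and 3.16 in that order, above the PRM medians given earlier. PRM1, which acts in the fusion of the plasma membranes, rose by 3.50 ± 0.196 in S. mikatae (SD, n = 4), by 3.58 ± 0.419 in S. paradoxus and by 4.67 ± 0.291 in S. cerevisiae (SD, n = 3 each). PRM3, which acts in nuclear fusion as PRM2 does, had a difference of −1.72 for S. paradoxus minus S. cerevisiae (adjusted p = 0.000216), beside −0.85 for PRM2, which was not called. KAR4 and KAR5 of the same list were at 0.23 and 0.12 in that comparison, neither of them called. Both turned sign with arrays scaled to a common spread, KAR4 to −0.72 (adjusted p = 0.269) and KAR5 to −0.59 (adjusted p = 0.00783, called). After quantile normalization they were at −0.45 and −0.11, neither of them called. Without these changes in processing, 3 of the 14 list genes were called lower in S. paradoxus minus S. cerevisiae and none higher. Of all genes, 7.25% were called lower in that comparison. The list was chosen with these data known, and its direction is no separate evidence.

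The receptor, G protein, kinases and transcription factors made up a list of 19 genes. Of those tested, 11 of 17 rose and 1 fell in S. mikatae, 10 of 18 rose and 2 fell in S. paradoxus, 10 of 14 rose and none fell in mating, and 11 of 19 rose and none fell in S. cerevisiae alpha factor arrays. Of all genes, 23.3%, 23.9%, 19.4% and 16.3% were called higher in these groups and 24.7%, 24.6%, 20.2% and 17.3% lower. Among those calls, the rise of STE18 in S. paradoxus was lost without any 1 array, the fall of DIG1 there without array 3, and the rise of STE4 in mating without array 1 or array 2. In S. cerevisiae alpha factor arrays the largest rises were those of BAR1, the protease that degrades alpha factor, at 2.29 ± 0.537, the kinase gene FUS3 at 2.06 ± 0.19, the arrest factor gene FAR1 at 1.86 ± 0.178 and the transcription factor gene TEC1 at 1.68 ± 0.167 (SD, n = 3 each). STE12 rose in every group, by 0.63 ± 0.153 in S. mikatae, 0.47 ± 0.102 in S. paradoxus, 0.38 ± 0.0298 in mating (n = 2) and 0.58 ± 0.156 in S. cerevisiae alpha factor arrays.

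The genes beside the PRM genes on the S. cerevisiae chromosomes were called in both directions. Of the 16 neighbours, all tested in the S. cerevisiae alpha factor response, 6 rose and 2 fell, where 16.3% of all genes were called higher and 17.3% lower. As 7 of the 8 PRM genes rose, most of the neighbours lie beside a PRM gene that rose, whatever their own change. The 6 neighbours that rose all do, and of the 2 that fell BSC1 lies beside PRM7 and NOT3 beside PRM2. MST27, MST28 and DFP2, 3 of the 6, are DUP240 genes beside PRM8 and PRM9. Of the 4 that share an upstream region with a PRM gene and point away from it, 2 rose. PRP39, a splicing factor gene that diverges from PRM6, had log2 ratios of 0.11, 0.66, 0.05 and 0.11 in S. mikatae, 0.71, 0.13 and 0.95 in S. paradoxus, and 1.16, 1.32 and 1.09 in S. cerevisiae. It rose by 1.19 ± 0.115 in S. cerevisiae (SD, n = 3; adjusted p = 0.000125) and was at 0.23 ± 0.288 in S. mikatae (SD, n = 4; adjusted p = 0.148). S. mikatae minus S. cerevisiae was −0.96 for PRP39 (adjusted p = 0.00793), beside −1.21 for PRM6.

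The other divergent neighbour that rose was CST6, next to PRM2, at 0.25 ± 0.155, which was not called without S. cerevisiae array 2 or array 3. On the same strand as a PRM gene, MST27, MST28, DFP2 and YJL107C rose and BSC1 and NOT3 fell, of 9 tested. YJL107C, next to PRM10, was at −0.48 ± 0.489 in S. mikatae and 0.60 ± 0.178 in S. cerevisiae (SD, n = 3 each), a difference of −1.07 (adjusted p = 0.0169), while PRM10 differed by 0.98. That difference was not called without S. cerevisiae array 1 (adjusted p = 0.0583). The S. cerevisiae rise of YJL107C was lost without array 1 or array 2, and its S. mikatae value was not called without S. mikatae array 2 (−0.20) or array 3 (−0.56). The NOT3 fall, −0.29 ± 0.126, was not called without S. cerevisiae array 1. The 3 neighbours convergent with a PRM gene, TGS1, RHO3 and GSF2, were at 0.15, −0.17 and 0.04, and RHO3 had the lowest adjusted p of them, 0.0868.

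**Figure D5:**
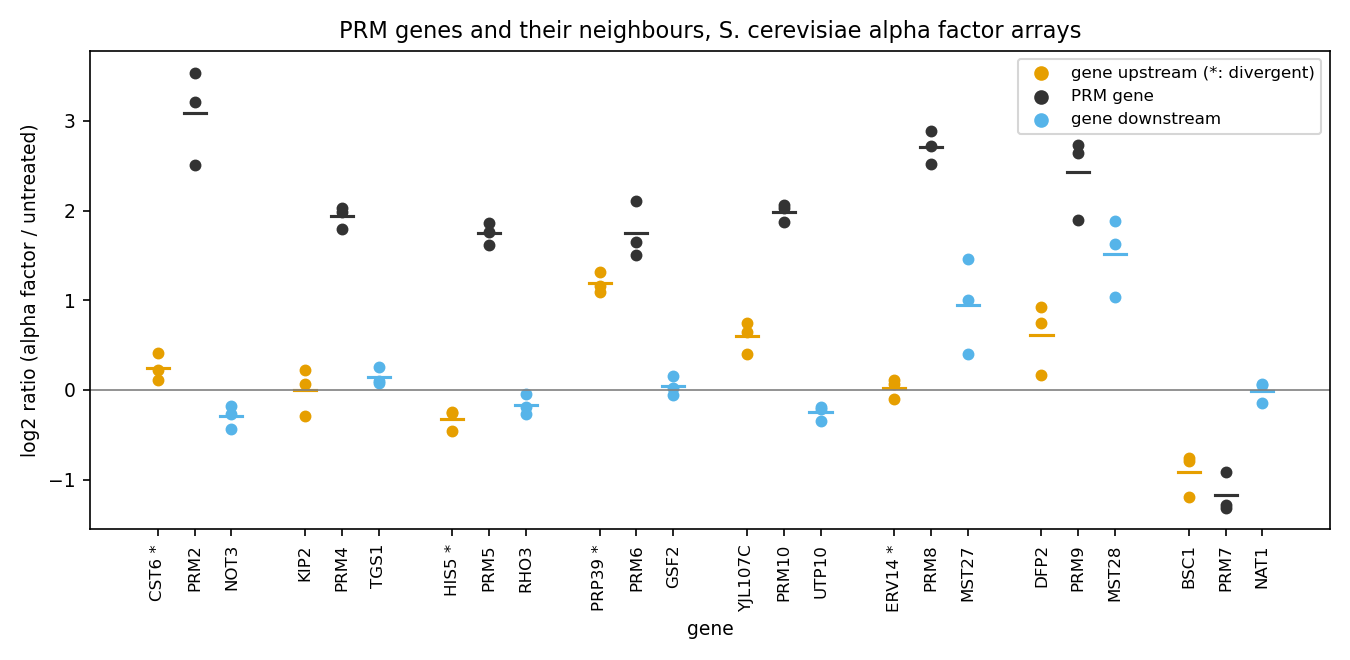
Log2 ratio (vertical axis) of each PRM gene, with its upstream and downstream neighbour, on the 3 S. cerevisiae alpha factor arrays, a point for each array and a line for the mean. An asterisk marks a neighbour that diverges from the PRM gene, of which PRP39, at 1.09 to 1.32, is highest, and BSC1 lies at −1.19 to −0.76 beside PRM7.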

How the data were processed

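The authors' deposited table holds 1 log2 ratio per ORF and array for 6132 ORFs on 13 arrays, read as channel 1 (treated or mated) over channel 2 (reference). Not given in the sources used here are its log base, direction, centring, normalization, background correction, scanner and treatment of missing spots. Medians of the arrays, −0.00931 to 0.00805, were subtracted. The fit, in limma 3.58.1 under R 4.3.3 (with statmod 1.5.0 for the block), took 1 mean for each group from the 13 arrays. Genes needed 2 measured arrays in each group compared, and group means were tested against 0 and differences by contrasts. Calls were made at a Benjamini-Hochberg adjusted p under 0.05 over all genes tested. Missing values were skipped, none imputed. The design text calls the samples of each species biological replicates processed in parallel, and whether this covers the mating arrays is not stated, so their p-values may measure technical spread. Same-numbered arrays of different groups had deviations correlated at −0.263 to 0.332 (18 pairs) and others at −0.335 to 0.393 (45 pairs), so no pairing was used.

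Gene names and neighbours came from the RefSeq gene table of assembly R64, which matched 5622 ORFs by locus tag. Its start coordinates were used to order the protein-coding genes on each chromosome, and strand was read from the ORF name. Gene lists covered surface and fusion genes, the pheromone pathway, cell wall integrity, ion transport, DUP240 genes, paralogs, and markers of a and alpha cells. The members and lists were chosen with earlier results of these data known. The rule for named genes took all PRM genes, their paralogs and the DUP240 genes, the called neighbours, the largest calls of each list and the 3 genes most like PRM7. List genes named for a lost call, and PIR1, MID1, RHO3, TGS1, GSF2, STE12, PRM3, KAR4, KAR5 and YDL038C were named after their values were seen. Alternatives were each array left out in turn, a replicate block, robust eBayes, array weights, a fit of only the arrays compared, genes complete on all 13 arrays, quantile normalization, arrays scaled to a common spread, and no centring. Scripts were tested on simulated data.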

Additional observations from a re-analysis of the deposited data

Results flagged for a closer look

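Of the PRM genes, 3 had differences between groups that passed limma's test of the difference itself. For PRM6, S. mikatae minus S. cerevisiae was −1.21 and S. mikatae minus S. paradoxus was −1.16 on the log2 scale, with all 4 S. mikatae arrays below all others. For PRM10, the same differences were 0.98 and 1.25, with all 4 S. mikatae arrays above all others, and the first of them was not called with arrays scaled to a common spread (0.73, adjusted p = 0.166). For PRM7, S. mikatae minus S. cerevisiae was 0.82, S. mikatae minus S. paradoxus was 1.54, S. paradoxus minus S. cerevisiae was −0.73, and mating minus alpha factor in S. cerevisiae was 1.40, with no overlap between the groups of any of these pairs. The −0.73 was not called without S. paradoxus array 1 or array 2 or S. cerevisiae array 3, with only the arrays compared, with a common spread (−0.33) or after quantile normalization (−0.80). The arrays of S. mikatae, S. paradoxus and S. cerevisiae each serve in several of these comparisons.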

How the results depend on the processing

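Left-out arrays gave 8 called PRM genes in S. cerevisiae alpha factor, 6 in S. paradoxus, 2 to 3 in S. mikatae, 3 in mating, 0 to 2 in S. paradoxus minus S. cerevisiae, 3 in both S. mikatae differences and 1 to 2 in mating minus alpha factor. Over all genes the same ranges were 1124 to 1402, 1666 to 1869, 1762 to 1861, 968 to 1099, 446 to 703, 309 to 492 (minus S. cerevisiae), 379 to 528 (minus S. paradoxus) and 294 to 498. The low counts came without S. cerevisiae alpha factor array 3 (1124, 446, 309 and 294), S. cerevisiae alpha factor array 1 (309) and mating array 2 (968). Those of 1666 and 379 came without S. paradoxus array 1, and that of 1762 without S. mikatae array 2. With only the 2194 genes measured on all 13 arrays, PRM7 was the 1 PRM gene left. It was called (1) in the alpha factor response of each species and in both S. mikatae differences, and not (0) in mating. All genes called were then 823 (S. cerevisiae), 1193 (S. paradoxus), 1245 (S. mikatae), 936 (mating), 421 (S. paradoxus minus S. cerevisiae) and 341 (S. mikatae minus S. cerevisiae), as fewer genes were tested.

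S. paradoxus minus S. cerevisiae had 1 called PRM gene, 2 with arrays scaled to a common spread, 2 with quantile normalization, 3 with array weights and 0 with only the arrays compared. Array weights gave 1204, 856 and 914 calls over all genes in S. paradoxus minus S. cerevisiae, S. mikatae minus S. cerevisiae and mating minus alpha factor, against 770, 517 and 584, and 2 PRM calls in the last. Signs that turned in S. paradoxus minus S. cerevisiae were those of PRM4 (−0.00053 uncentred, −0.48 scaled, −0.23 quantile, and −0.0686 to 0.0466 over left-out arrays), PRM5 (−0.0919 to 0.121 over left-out arrays) and PRM6 (0.0083 with array weights, −0.18 to 0.129 over left-out arrays). PRM5 in mating minus alpha factor turned to −0.0158 scaled and −0.0038 with array weights. The cause was not tested. A replicate block (correlation −0.0545) changed no PRM call and gave 1935, 2307, 2088 and 1462 calls over all genes in the S. cerevisiae, S. paradoxus, S. mikatae and mating responses. Of the single-gene values, 249 kept direction and call under other settings and 156 with 1 array left out, while 7 and 2 gained a call, 5 and 4 lost one, and 6 and 6 turned sign.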
